A study of Mus musculus with 28 samples.

Results

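The 45 genes described here encode ligands, receptors, Smads, antagonists and targets of the bone morphogenetic protein (BMP) and transforming growth factor beta (TGF-beta) pathways. They were chosen by name and not by a cut on level, though with earlier results of these data known. All 45 were found among the 28244 genes of the mouse RNA-seq count table. By role they are 8 BMP-type ligands, 6 TGF-beta and activin-type ligands, 6 type I receptors, 4 type II receptors, the co-receptor *Tgfbr3*, the pseudoreceptor *Bambi*, 3 BMP-type Smads, 2 TGF-beta-type Smads, the common Smad *Smad4*, 2 inhibitory Smads, 4 Id genes and 7 secreted antagonists or matrix regulators.

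Ligands of this family bind a complex of type I and type II receptor kinases, and the type I receptor phosphorylates receptor Smads, which enter the nucleus with the common Smad. BMP-type ligands act mainly through one set of Smads and TGF-beta and activin through another. The Id genes, which encode inhibitors of basic helix-loop-helix transcription factors, are well known targets of BMP signalling, and in neural stem cells this signalling is known for its part in quiescence and in the choice between neuronal and astrocytic fates.

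The study derived peripheral neural stem cells (pNSCs), cultured lines with neural stem cell features from tissue outside the central nervous system, and the 28 libraries fall into 11 groups from 3 experiments. The Nes-GFP experiment, in mice whose GFP reports *Nestin* expression, holds pNSCs from adult lung and from postnatal tail, brain NSCs, and cells of lung and tail tissue (n = 2 each); the labels of these 5 groups do not name the reporter, and the assignment follows the study's description. The Wnt1Cre-mTmG experiment, in which Wnt1-driven Cre switches neural crest descendants from Tomato to GFP, holds brain NSCs, postnatal tail pNSCs and postnatal dorsal root ganglion (DRG) pNSCs, the pNSCs being Tomato-positive and GFP-negative, beside neural crest stem cells (NCSCs) from the DRG of adult wild-type mice (n = 3 each). The Sox2-GFP experiment, with a knock-in reporter, holds brain NSCs and postnatal lung pNSCs (n = 3 each). The labels give C57BL/6 as the strain throughout, while the methods describe outcrossed reporter mice. The pNSCs grew in medium with EGF and bFGF and were picked as single clusters, so that a group may stand for 1 line. For brain NSCs the methods describe passaged cultures of whole brain, from adult or postnatal mice, and no picking. The study also made clonal lines of brain NSCs and Nes-GFP pNSCs for differentiation, and the labels do not say whether such lines were sequenced. Tissue of origin and way of derivation therefore cannot be told apart in the comparisons with brain NSCs, and donor age may differ as well. The study's figure legends call the replicates biological, but neither they nor the labels say whether these are separate lines or cultures. P-values then measure the spread between these samples, which may be technical.

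Total counts ran from 9808246 to 22637031 per library. Mean squared differences between replicates were 1.09 to 2.82 times those from counting error outside the NCSCs and 2.22 to 21.02 times in the NCSCs, whose replicate 3 lay apart. Levels are given as cpm, which are counts scaled to library size, here with TMM factors over all libraries. The 8 neural stem cell markers summed to 5960 to 8279 cpm in brain NSCs and pNSCs, 1448 to 1832 in NCSCs, 339 to 364 in lung cells and 116 at most in tail cells, with *Sox1* at 0 in both tissues. Single markers did not all follow the sum. *Sox1* had 8.30 to 9.06 cpm in Sox2-GFP lung pNSCs against 47.2 to 52.9 in their brain NSCs. It had 83.96 to 90.0 in Wnt1Cre-mTmG tail pNSCs against 42.8 to 46.9. The NCSC sum was led by *Nes*, at 1121 to 1515 cpm. In NCSCs the 6 neural crest and Schwann cell markers summed to 4255 to 4361 cpm. In such bulk libraries fewer cells of a type and less RNA per cell cannot be told apart.

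Per kilobase of exon, the scale on which genes can be compared with each other, members were ranked within roles in brain NSCs and pNSCs. Among type I receptors *Bmpr1a*, which binds BMPs, was the highest in all 8 of these groups, at 30.4 to 46.3 mean cpm per kb. Among type II receptors it was *Bmpr2*, at 13.5 to 23.8. Summed over the role, type I receptors had 64.55 to 87.3 cpm per kb in the 8 groups. They had 96.1 in NCSCs, 97.6 in tail cells and 316.6 in lung cells. Type II receptors summed to 23.8 to 35.95, against 67.8 in NCSCs, 62.05 in tail cells and 120.9 in lung cells. *Smad5* was the highest BMP-type Smad, at 42.7 to 63.7, and *Id3* the highest Id gene, at 54.9 to 104. The BMP-type Smads summed to 51.5 to 71.45, above 39.1 in NCSCs, 34.0 in tail cells and 30.4 in lung cells. The Id genes summed to 103.5 to 134.1, between 48.2 in NCSCs and 267.3 and 328 in lung and tail cells. Of the BMP-type ligands *Bmp7* was the highest per kb in all 8 groups, at 7.32 to 38.3, and of the TGF-beta and activin-type ligands it was *Inhbb* or *Gdf11*, genes of an activin subunit and of an activin-like ligand.
On the cpm scale, 17 members lay above 20 cpm in every one of the 21 NSC samples, among them the receptors *Bmpr1a*, *Bmpr1b* and *Tgfbr1* and the Smads *Smad1*, *Smad5*, *Smad2*, *Smad3* and *Smad4*. By contrast 10 members stayed under 3 cpm in all 21. These were *Bmp2*, *Bmp4*, *Bmp5*, *Bmp6*, *Gdf6*, *Gdf10*, *Tgfb1*, *Inhba*, the type I receptor gene *Acvrl1*, best known from endothelium, and the BMP antagonist gene *Grem1*.

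**Figure D1:**
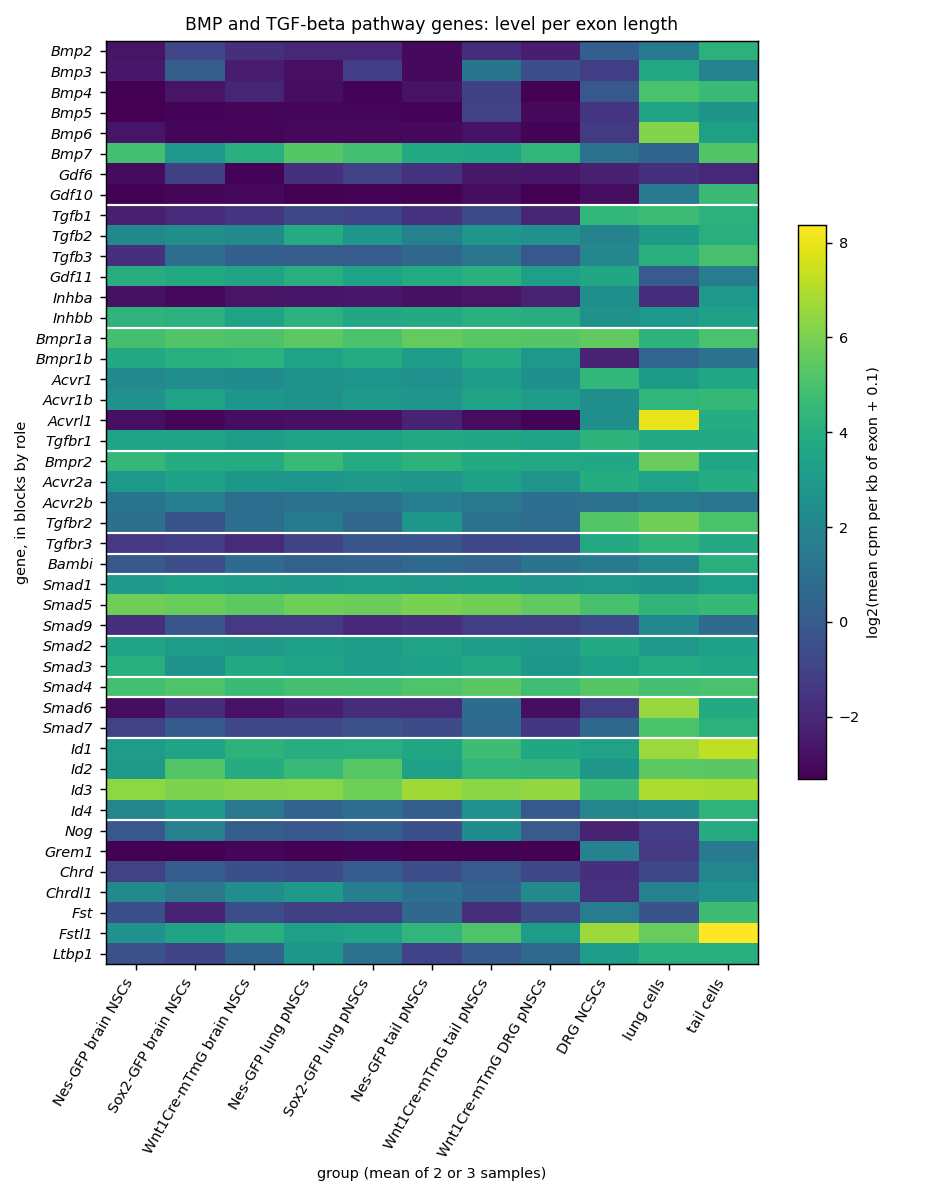
Heat map of the mean level of the 45 genes (rows, by role) in the 11 groups (columns, 2 or 3 samples each), as log2 of mean cpm per kb of exon plus 0.1. In brain NSCs and pNSCs the rows of Bmpr1a (30.4 to 46.3 cpm per kb), Smad5 and Id3 are among the highest of their roles, while most BMP ligands, Acvrl1 and Grem1 are low and are higher in lung or tail cells.

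How far pNSCs resemble brain NSCs in these genes was addressed in 5 comparisons, each with the brain NSCs of its own experiment. A gene was called when its log2 fold change was at least 1 in size and its adjusted p was under 0.05 (edgeR quasi-likelihood test, two-sided, Benjamini-Hochberg over all tested genes). Parentheses after levels give the log2 fold change of the first group over the second, its SE and the adjusted p.
In Nes-GFP tail pNSCs 10 of 45 members were higher and 3 lower, beside 4.31% of all tested genes higher and 6.59% lower. In Nes-GFP lung pNSCs 6 of 45 were higher and 1 lower, beside 4.56% and 4.15%. In Wnt1Cre-mTmG tail pNSCs 11 of the 43 members tested were higher and 2 lower, beside 9.16% and 9.05%, with *Gdf6* and *Gdf10* untested there for low counts. DRG pNSCs had 2 of 43 higher and 4 lower, beside 3.12% and 6.41%. Sox2-GFP lung pNSCs had 7 of 45 higher and 6 lower, beside 5.76% and 9.99%.
The members' median log2 fold changes were 0.18, 0.20, 0.48, -0.09 and 0.02 in that order, against 0.00 to 0.01 over all genes tested. Of the 45 members, 21 were called in none of the 5 comparisons, 9 in 1, 7 in 2, 4 in 3, 3 in 4 and 1, *Id4*, in all 5. How often other genes were called in all 5 was not counted. Some calls rest on few counts. Fewer than 30 counts in every sample of both groups lay behind 5 of the 13 calls in Nes-GFP tail pNSCs, 3 of the 13 in Sox2-GFP lung pNSCs and 1 in each of the other 3 comparisons.
Of 53 other genes of the pathway, 8 of 46 tested were called in Nes-GFP tail pNSCs (6 higher, 2 lower), 6 of 46 in Nes-GFP lung pNSCs (5 and 1), 13 of 40 in Wnt1Cre-mTmG tail pNSCs (11 and 2), 9 of 40 in DRG pNSCs (4 and 5) and 8 of 42 in Sox2-GFP lung pNSCs (5 and 3).

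**Figure D2:**
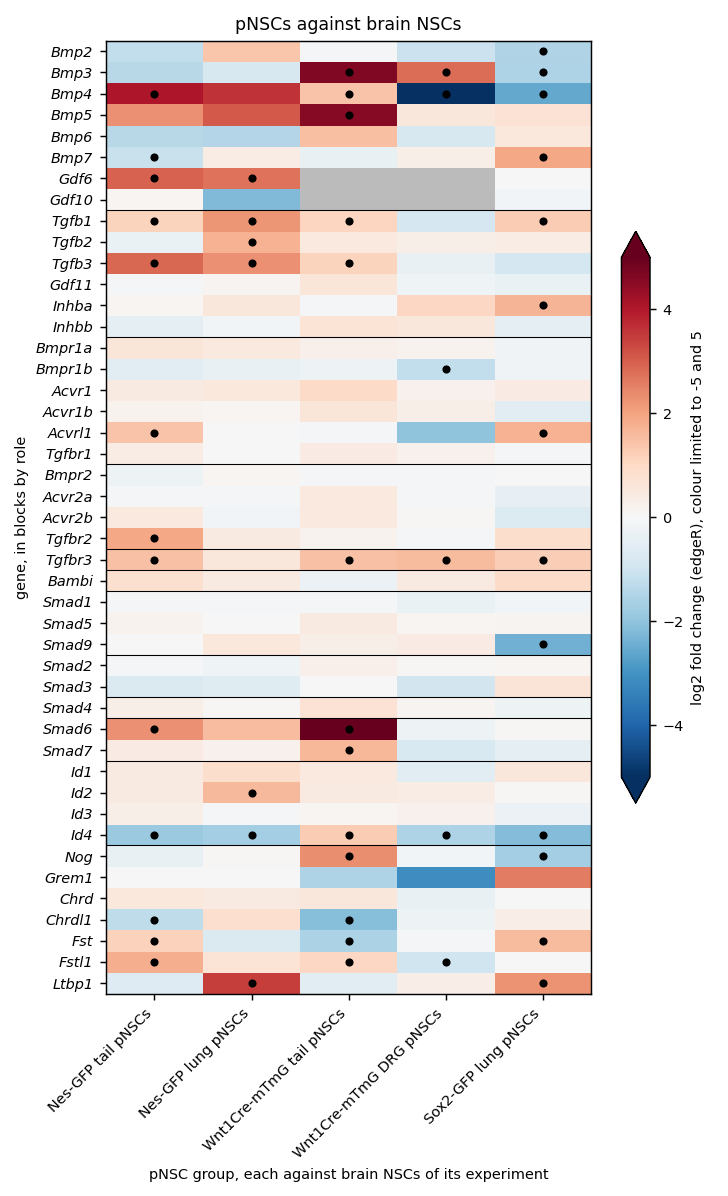
Heat map of the log2 fold change of the 45 genes (rows, by role) in the 5 comparisons of pNSCs with brain NSCs of the same experiment (columns), with colour limited at 5 in size; dots mark called genes and grey cells untested ones. Id4 has a dot in all 5 columns, while Smad1, Smad5, Smad2, Smad3 and Smad4 have none; strong colours in rows such as Bmp4 and Grem1 are fitted values from a few counts.

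The 250 bases before the RefSeq start of *Id4* (GRCm38.p6, chr13:48260866-48261115, plus strand) are shown because this was the member called in all 5 comparisons. Capitals mark GGCGCC, a GC-rich element known from BMP-responsive Id promoters that reads the same on both strands.

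Id4: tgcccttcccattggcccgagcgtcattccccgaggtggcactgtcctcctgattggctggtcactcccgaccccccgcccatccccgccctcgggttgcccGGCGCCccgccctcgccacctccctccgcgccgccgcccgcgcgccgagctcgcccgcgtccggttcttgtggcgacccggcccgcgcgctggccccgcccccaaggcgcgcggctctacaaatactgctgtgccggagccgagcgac

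The element lies 148 bases before this RefSeq start. The bases that follow the window were not found in a GENCODE transcript of *Id4*. The GENCODE gene begins at 48261228, so the distance to the start in use is uncertain. GGCGCC occurs in such a window of 9 of the 30 members that have one in the RefSeq table, *Id2* among them, and in 9.59% of all 32851 windows. A match is a description of the letters and not a site.

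*Id4*, whose product can pair with other Id proteins, was lower than in brain NSCs in 4 pNSC groups and higher in the other. Its levels were 16.1 and 13.7 cpm in Nes-GFP brain NSCs, 4.00 and 4.21 in tail pNSCs and 4.93 and 4.36 in lung pNSCs. In the Sox2-GFP experiment they were 30.8, 27.3 and 29.3 cpm in brain NSCs and 6.17, 6.74 and 6.66 in lung pNSCs. In both experiments the pNSC samples lay below all the brain NSC samples. In the Wnt1Cre-mTmG experiment the levels were 10.6, 7.93 and 9.802 cpm in brain NSCs, 3.30, 2.96 and 3.37 in DRG pNSCs and 23.0, 22.7 and 22.1 in tail pNSCs. The DRG pNSCs lay below and the tail pNSCs above their brain NSCs, without overlap.
The log2 fold changes of *Id4* were -1.86 (SE 0.137, edgeR adjusted p 1.34e-40) in Nes-GFP tail pNSCs and -1.68 (SE 0.131, 3.86e-36) in Nes-GFP lung pNSCs. They were -2.15 (SE 0.0778, edgeR adjusted p 4.93e-166) in Sox2-GFP lung pNSCs, -1.56 (SE 0.149, 1.58e-07) in DRG pNSCs and 1.26 (SE 0.0968, 3.78e-09) in Wnt1Cre-mTmG tail pNSCs. The mean *Id4* level of the brain NSC groups themselves spanned 9.46 to 29.1 cpm, a 3.08-fold range that includes all 3 samples of the Wnt1Cre-mTmG tail pNSCs. *Id4* (chromosome 13, 48261228 to 48266026, GRCm38, plus strand) is overlapped on the opposite strand by *A330033J07Rik* and *Gm49291*, and whether the counting used strand is not given in the sources used here.
The summed level of 4 astrocyte markers was lower in pNSCs in all 5 comparisons, including the one in which *Id4* rose. It was 126 to 128 cpm in Nes-GFP brain NSCs, 10.3 to 12.3 in tail pNSCs and 77.7 to 84.9 in lung pNSCs. In the Sox2-GFP experiment it was 914 to 920.3 cpm in brain NSCs and 80.0 to 82.2 in lung pNSCs, and in the Wnt1Cre-mTmG experiment 1125 to 1150 in brain NSCs, 97.4 to 102 in tail pNSCs and 175 to 181 in DRG pNSCs. Not all 4 moved alike. In Nes-GFP lung pNSCs *S100b* (57.8 to 61.6 cpm against 36.5 to 39.9) and *Aqp4* (7.54 to 8.25 against 4.63 to 7.15) were higher than in brain NSCs, *Gfap* was lower (2.56 to 2.74 against 3.70 to 4.53), and the lower sum came from *Aldh1l1* (9.55 to 12.4 against 77.4 to 80.6). None of the 4 markers was at 0 in all samples of a group, and their part in the *Id4* result was not tested.

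The other 3 Id genes gave 1 call in these 5 comparisons. *Id3* (chromosome 4, 136143497 to 136145755, GRCm38, plus strand) had 146 and 153 cpm in Nes-GFP brain NSCs, 183 and 189 in tail pNSCs and 140.2 and 139.6 in lung pNSCs. It had 124, 119 and 123 cpm in Sox2-GFP brain NSCs and 98.1, 95.5 and 101 in lung pNSCs. In the Wnt1Cre-mTmG experiment it had 135, 133 and 144 cpm in brain NSCs, 145, 145 and 145 in tail pNSCs and 156, 161 and 160.1 in DRG pNSCs. The log2 fold changes of *Id3* lay between -0.31 and 0.31, inside the limit for a call.
*Id1* had 9.54 and 10.1 cpm in Nes-GFP brain NSCs, 14.6 and 12.3 in tail pNSCs and 19.5 and 16.3 in lung pNSCs. It had 13.1, 12.3 and 13.6 cpm in Sox2-GFP brain NSCs and 18.6, 20.2 and 18.9 in lung pNSCs. It had 24.1, 19.1 and 22.1 cpm in Wnt1Cre-mTmG brain NSCs, 30.9, 30.2 and 31.1 in tail pNSCs and 14.5, 15.3 and 13.9 in DRG pNSCs. The groups did not overlap in any of the 5 comparisons, yet the log2 fold changes of *Id1*, from -0.58 in DRG pNSCs to 0.86 in Nes-GFP lung pNSCs, were inside the limit for a call.
*Id2* rose in Nes-GFP lung pNSCs, with 58.9 and 56.6 cpm against 20.3 and 16.5 in brain NSCs and 25.5 and 24.3 in tail pNSCs (1.64, SE 0.0697, edgeR adjusted p 1.29e-120 for lung against brain). It had 92.6, 94.7 and 91.9 cpm in Sox2-GFP brain NSCs and 99.0, 96.2 and 96.7 in lung pNSCs. It had 39.8, 35.0 and 36.2 cpm in Wnt1Cre-mTmG brain NSCs, 51.0, 51.6 and 49.2 in tail pNSCs and 49.4, 49.5 and 47.0 in DRG pNSCs. The brain NSC groups differed 5.06-fold from each other in mean *Id2* level.
As a share of the summed Id level per kb, *Id3* made up 79.7 to 81.8% in Nes-GFP brain NSCs, 80.9 to 83.0% in tail pNSCs and 64.9 to 67.0% in lung pNSCs. *Id4* had 3.41 to 4.09% of the sum in those brain NSCs, 0.825 to 0.859% in tail pNSCs and 0.972 to 1.06% in lung pNSCs. Its share was 4.30 to 4.43% in Wnt1Cre-mTmG tail pNSCs and 1.93 to 2.39% in their brain NSCs.

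**Figure D3:**
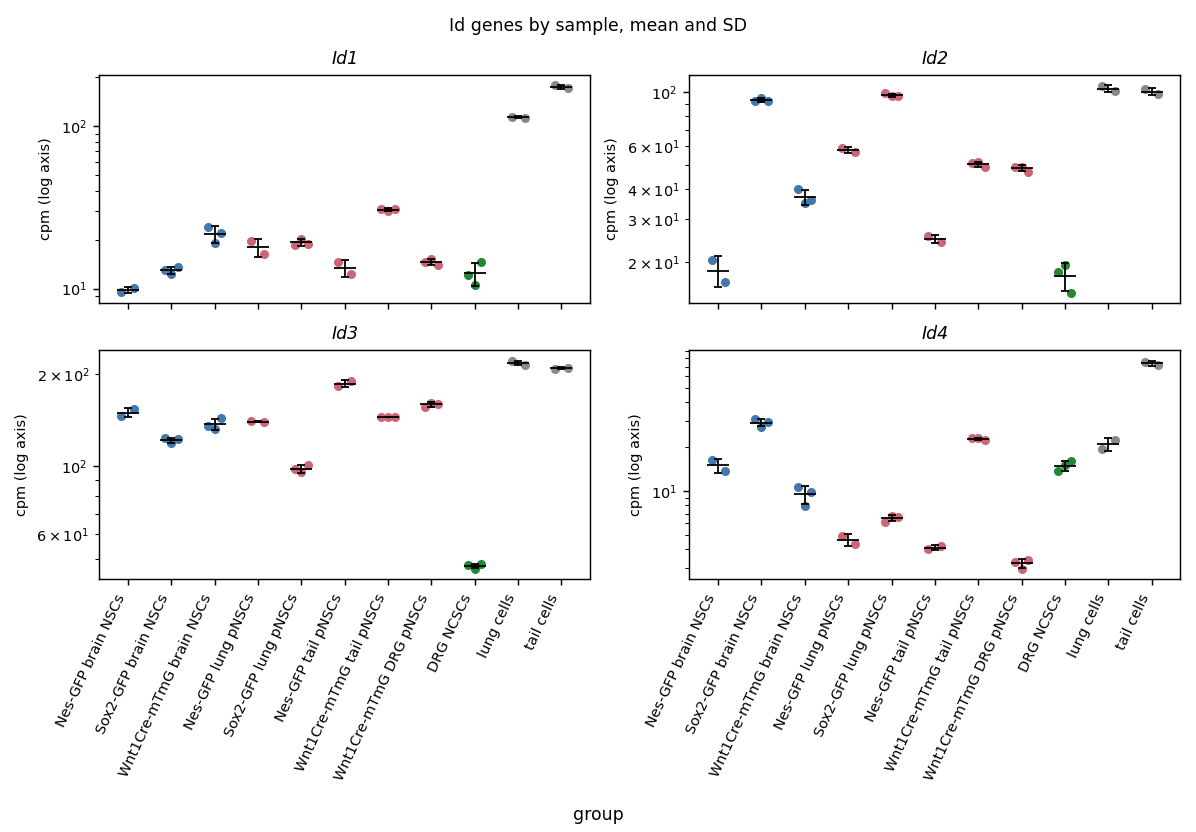
Levels of the 4 Id genes in cpm (log axis) in every sample of the 11 groups; points are samples and bars the mean and SD (n = 2 or 3), with brain NSCs in blue, pNSCs in red, NCSCs in green and tissue cells in grey. Id3 lies at 95.5 to 189 cpm in brain NSCs and pNSCs, while Id4 lies at 2.96 to 6.74 cpm in 4 pNSC groups and at 22.1 to 23.0 cpm in Wnt1Cre-mTmG tail pNSCs.

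Among the TGF-beta ligands *Tgfb1*, best known for its role in immune regulation and matrix production, rose in 4 of the 5 pNSC groups, from a low level. It had 0.609 and 0.438 cpm in Nes-GFP brain NSCs, 0.743 and 1.47 in tail pNSCs and 2.37 and 2.51 in lung pNSCs. It had 0.749, 0.778 and 1.09 cpm in Sox2-GFP brain NSCs and 1.68, 2.18 and 2.35 in lung pNSCs. In the Wnt1Cre-mTmG experiment it had 1.70, 0.967 and 1.01 cpm in brain NSCs, 2.19, 2.71 and 2.87 in tail pNSCs and 0.424, 0.887 and 0.769 in DRG pNSCs. In the 4 groups with a call every pNSC sample lay above the brain NSC samples of its experiment, and every DRG pNSC sample lay below them.
The log2 fold changes of *Tgfb1* were 1.10 (SE 0.388, edgeR adjusted p 0.0108) in Nes-GFP tail pNSCs, 2.2 (SE 0.318, 4.41e-11) in Nes-GFP lung pNSCs, 1.26 (SE 0.231, 1.21e-07) in Sox2-GFP lung pNSCs and 1.07 (SE 0.219, 0.000376) in Wnt1Cre-mTmG tail pNSCs. In DRG pNSCs the value was -0.85 (edgeR adjusted p 0.0506). The call in Nes-GFP tail pNSCs was lost without replicate 2 of these cells (0.50) or of the brain NSCs (0.88). That in Wnt1Cre-mTmG tail pNSCs was lost without replicate 3 of these cells (0.99), or replicate 2 (0.93) or 3 (0.94) of the brain NSCs.
*Tgfb3*, a TGF-beta ligand known from palate and lung development, rose in both tail pNSC groups and in Nes-GFP lung pNSCs. It had 0.812 and 0.536 cpm in Nes-GFP brain NSCs, 4.46 and 5.37 in tail pNSCs (2.87, SE 0.258, edgeR adjusted p 1.35e-27) and 3.32 and 3.41 in lung pNSCs (2.30, SE 0.281, adjusted p 3.13e-15). In the Wnt1Cre-mTmG experiment it had 4.02, 3.19 and 3.38 cpm in brain NSCs, 7.61, 7.36 and 8.05 in tail pNSCs (1.12, SE 0.181, edgeR adjusted p 3.41e-05) and 2.63, 2.56 and 3.08 in DRG pNSCs (-0.36, not called). Sox2-GFP lung pNSCs, with 3.21, 3.39 and 2.84 cpm, lay below their brain NSCs with 5.82, 5.75 and 5.97 (-0.89, inside the limit for a call). *Tgfb3* is overlapped on the opposite strand by *Ttll5*, *Gm37804* and *Gm48008*.
*Tgfb2*, the highest of the 3 TGF-beta genes per kb in all 8 NSC groups, was called in Nes-GFP lung pNSCs alone among the 5, with 82.4 and 84.9 cpm against 25.3 and 24.6 in brain NSCs (1.73, SE 0.0639, edgeR adjusted p 2.31e-159). The activin-type ligand genes *Gdf11* and *Inhbb* were not called in any of the 5 comparisons, with group means of 39.4 to 69.9 and 45.4 to 81.6 cpm over the 8 NSC groups. *Inhba*, which encodes the subunit of activin A, rose in Sox2-GFP lung pNSCs (1.70, SE 0.567, edgeR adjusted p 0.00486), from 0.130 to 0.459 mean cpm, and by 2.33 without replicate 2 of the brain NSCs.

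*Ltbp1*, whose product holds latent TGF-beta in the matrix, rose in both lung pNSC groups. It had 73.4 and 79.6 cpm in Nes-GFP lung pNSCs, 6.85 and 7.02 in brain NSCs and 4.51 and 4.31 in tail pNSCs. In the Sox2-GFP experiment it had 22.5, 21.4 and 21 cpm in lung pNSCs and 4.73, 4.32 and 4.59 in brain NSCs. Every lung pNSC sample lay above all the brain NSC samples of its experiment, with log2 fold changes of 3.45 (SE 0.0764) and 2.26 (SE 0.0866, edgeR adjusted p 9.92e-148), the largest rises among called members in both lung comparisons.
The tail and DRG pNSC groups had no such call. In the Wnt1Cre-mTmG experiment *Ltbp1* had 12.3, 14.6 and 12.9 cpm in brain NSCs, 8.79, 8.79 and 10.3 in tail pNSCs and 16.1, 15.9 and 17.98 in DRG pNSCs, with log2 fold changes of -0.51 and 0.33, and in Nes-GFP tail pNSCs the value was -0.65. In lung cells it had 177 and 169 cpm, above both lung pNSC groups. The level was much the same in tail cells, at 170 and 169.8 cpm, though tail pNSCs showed no rise, and NCSCs had 97.9, 94.4 and 96.8. *Ltbp1* (chromosome 17, 75005568 to 75392512, GRCm38, plus strand) shares its strand with the overlapping *Gm6276*.
The windows of 250 bases before the RefSeq starts of *Ltbp1* (the first of its starts, chr17:75005279-75005528, plus strand), *Tgfb2* (chr1:186705990-186706239, minus strand) and *Tgfb1* (chr7:25686752-25687001, plus strand), all GRCm38.p6, are shown because all 3 genes rose in Nes-GFP lung pNSCs. Capitals mark CAGAC, the letters of a Smad-binding element, or GTCTG, the same letters on the other strand.

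Ltbp1: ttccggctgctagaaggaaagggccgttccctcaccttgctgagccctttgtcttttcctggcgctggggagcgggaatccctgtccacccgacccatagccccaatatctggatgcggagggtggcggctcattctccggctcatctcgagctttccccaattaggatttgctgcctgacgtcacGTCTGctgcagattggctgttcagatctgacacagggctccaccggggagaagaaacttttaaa
Tgfb2: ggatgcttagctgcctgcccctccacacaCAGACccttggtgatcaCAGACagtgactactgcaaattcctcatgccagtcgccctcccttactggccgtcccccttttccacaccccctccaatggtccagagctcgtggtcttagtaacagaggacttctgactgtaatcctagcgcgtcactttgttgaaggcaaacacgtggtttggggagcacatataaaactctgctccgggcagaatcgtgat
Tgfb1: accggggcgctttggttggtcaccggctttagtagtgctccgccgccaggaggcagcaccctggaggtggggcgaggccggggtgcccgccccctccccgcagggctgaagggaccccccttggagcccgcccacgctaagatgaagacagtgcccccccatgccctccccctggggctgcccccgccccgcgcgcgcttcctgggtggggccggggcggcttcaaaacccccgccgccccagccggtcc

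CAGAC on either strand was found 64 bases before the start in the *Ltbp1* window, 221 and 204 bases before the start in the *Tgfb2* window, and not in the *Tgfb1* window. The bases that follow the *Ltbp1* window were not found in a GENCODE transcript of the gene, so its start is uncertain. Those that follow the other windows were found. CAGAC occurs in at least 1 window of 13 of the 30 members and in 42.2% of all 32851 windows, again a share per gene beside a share per window.

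**Figure D4:**
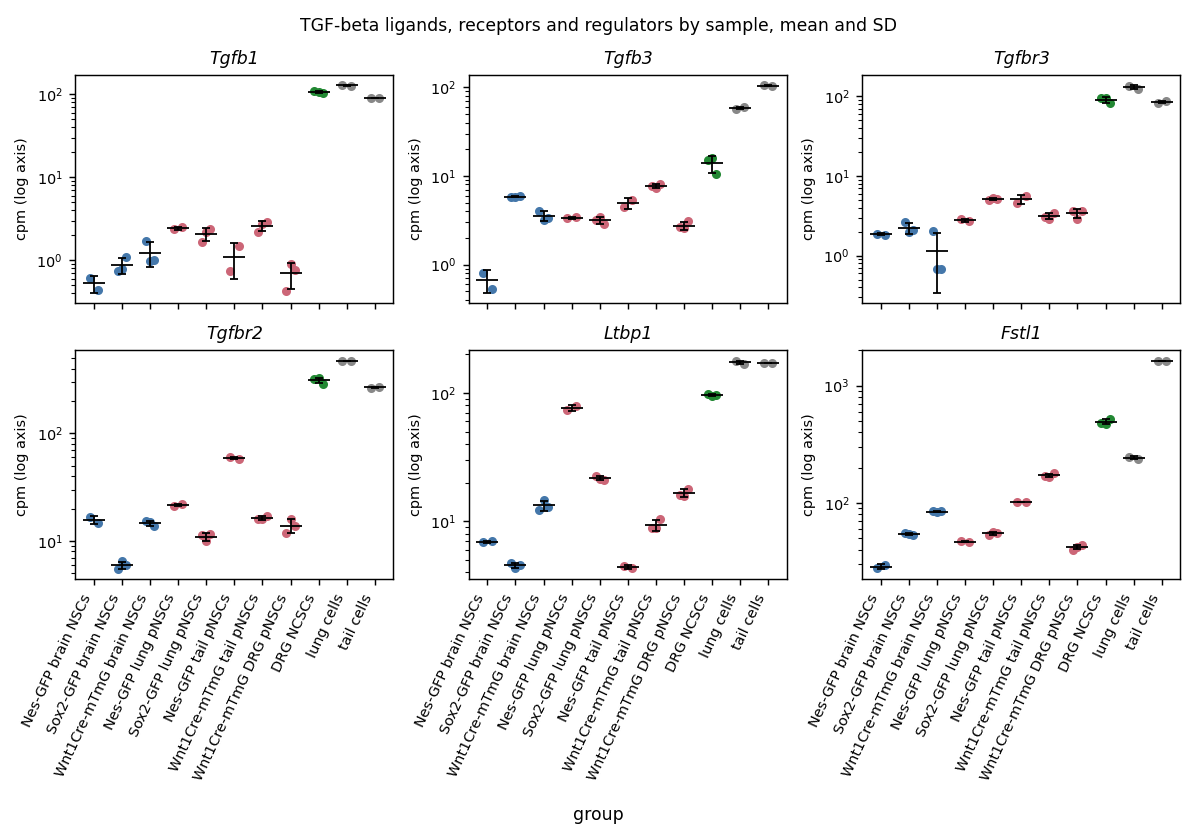
Levels of 6 TGF-beta pathway genes in cpm (log axis) in every sample of the 11 groups; points are samples and bars the mean and SD (n = 2 or 3), with brain NSCs in blue, pNSCs in red, NCSCs in green and tissue cells in grey. Ltbp1 lies at 73.4 to 79.6 cpm in Nes-GFP lung pNSCs and 21 to 22.5 in Sox2-GFP lung pNSCs, and Tgfb1 at 102 to 109 cpm in NCSCs and 0.424 to 2.87 in brain NSCs and pNSCs.

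Of the receptors, *Bmpr1a*, *Acvr1*, *Acvr1b*, *Tgfbr1*, *Bmpr2*, *Acvr2a* and *Acvr2b* were not called in any of the 5 comparisons, nor was the pseudoreceptor gene *Bambi*. *Tgfbr3*, the co-receptor betaglycan that presents TGF-beta to its receptors, rose in 4 pNSC groups. It had 1.88 and 1.80 cpm in Nes-GFP brain NSCs, 4.63 and 5.58 in tail pNSCs and 2.85 and 2.68 in lung pNSCs. It had 2.65, 1.989 and 2.07 cpm in Sox2-GFP brain NSCs and 4.98, 5.30 and 5.15 in lung pNSCs. It had 2.06, 0.677 and 0.676 cpm in Wnt1Cre-mTmG brain NSCs, 3.06, 2.90 and 3.42 in tail pNSCs and 3.64, 2.86 and 3.66 in DRG pNSCs. In each of the 5 comparisons the pNSC samples lay above the brain NSC samples without overlap.
The log2 fold changes of *Tgfbr3* were 1.48 (SE 0.199, edgeR adjusted p 7.19e-13) in Nes-GFP tail pNSCs, 1.22 (SE 0.147, 4.63e-16) in Sox2-GFP lung pNSCs, 1.45 (SE 0.284, 0.000239) in Wnt1Cre-mTmG tail pNSCs and 1.57 (SE 0.310, 0.000491) in DRG pNSCs. In the Wnt1Cre-mTmG brain NSCs replicate 1 lay apart, and without it the values were 2.19 in tail and 2.31 in DRG pNSCs. In Nes-GFP lung pNSCs the value, 0.58 (SE 0.228), was inside the limit for a call. *Tgfbr3* overlaps *Gm42900*, *Gm43422* and *Gm43423* on its strand and *Gm8145* on the other.
*Tgfbr2*, the TGF-beta type II receptor gene, rose in Nes-GFP tail pNSCs, with 60.04 and 58.1 cpm against 16.6 and 14.7 in brain NSCs (1.92, SE 0.0626, edgeR adjusted p 1.63e-202). In the other 4 groups its log2 fold changes lay between -0.09 and 0.87. *Bmpr1b*, which encodes another BMP type I receptor, fell in DRG pNSCs, with 46.5, 41.5 and 42.7 cpm against 106, 99.4 and 105 in brain NSCs (-1.24, SE 0.0609, edgeR adjusted p 2.73e-11). *Acvrl1* was called higher in Nes-GFP tail pNSCs with 9 and 9 counts against 2 and 5, and in Sox2-GFP lung pNSCs with 8, 2 and 2 counts against 1, 1 and 1. These calls were lost under 4 and 8 alternatives, among them the removal of replicate 1 of the Nes-GFP brain NSCs (0.97) and of the Sox2-GFP lung pNSCs (0.74).

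Among BMP-type ligands, *Bmp7* fell in Nes-GFP tail pNSCs, with 53.5 and 56.7 cpm against 116 and 123 in brain NSCs (-1.11, SE 0.0472, edgeR adjusted p 8.53e-121). It rose in Sox2-GFP lung pNSCs, with 113, 114 and 110.1 cpm against 30.1, 29.9 and 28.3 in brain NSCs (1.93, SE 0.0399). In Nes-GFP lung, Wnt1Cre-mTmG tail and DRG pNSCs its values were 0.36, -0.37 and 0.29.
*Bmp3*, a ligand known for opposing other BMPs, rose in both Wnt1Cre-mTmG pNSC groups. It had 0.715, 0.677 and 0.507 cpm in their brain NSCs, 15.7, 16.4 and 15.04 in tail pNSCs (4.63, SE 0.158, edgeR adjusted p 5.69e-14) and 4.32, 4.53 and 4.33 in DRG pNSCs (2.79, SE 0.216, adjusted p 1.13e-08). It fell in Sox2-GFP lung pNSCs, with 2.30, 2.60 and 2.75 cpm against 6.80, 8 and 7.52 in brain NSCs (-1.55, SE 0.129, edgeR adjusted p 2.62e-32). In the Nes-GFP experiment it had 0.558 and 0.438 cpm in brain NSCs, 0 and 0.355 in tail pNSCs and 0.190 and 0.391 in lung pNSCs, and neither comparison passed the threshold (edgeR adjusted p 0.0556 and 0.262).
*Bmp4*, a ligand central to early patterning, was called in 4 comparisons, 3 of them on a few counts. Nes-GFP tail pNSCs had 3 and 1 counts and brain NSCs 0 and 0, and this call, the largest fitted rise of a member there, was lost under 6 alternatives, DESeq2 and the replicate block among them. DRG pNSCs had 0, 0 and 0 counts and their brain NSCs 3, 2 and 5, at least 1.06-fold lower on a floor of 3 counts per library. Sox2-GFP lung pNSCs had 0, 0 and 1 counts and their brain NSCs 4, 2 and 1, a ratio of 7.85 with a 95.0% exact interval of 1.01 to 354 for counting error, and this call was lost without replicate 1 of the brain NSCs or replicate 1 or 2 of the lung pNSCs. With 16, 21 and 16 counts, Wnt1Cre-mTmG tail pNSCs had 0.699, 0.966 and 0.805 cpm against 0.268, 0.194 and 0.423 in brain NSCs (1.44, SE 0.396, edgeR adjusted p 0.00495).
*Bmp5* rose in the same tail pNSCs, with 33, 43 and 25 counts against 0, 1 and 1, a ratio of 26.1 with a 95.0% exact interval of 7.05 to 219 for counting error. *Gdf6*, known from skeletal and eye development, was called higher in both Nes-GFP pNSC groups, with 15 and 15 counts in tail pNSCs and 13 and 14 in lung pNSCs against 2 and 2 in brain NSCs. *Bmp2* fell in Sox2-GFP lung pNSCs by 1.49 on the log2 scale (SE 0.295, edgeR adjusted p 1.07e-06). *Bmp6* and *Gdf10* were not called in any of the 5 comparisons.

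The Smads that carry the signal, *Smad1*, *Smad5*, *Smad2*, *Smad3* and *Smad4*, were not called in any of the 5 comparisons. *Smad5* had group means of 317 to 418 cpm in brain NSCs and 336 to 473 in pNSCs. *Smad9*, the other BMP-type Smad gene, fell in Sox2-GFP lung pNSCs (-2.42, SE 0.206, edgeR adjusted p 5.18e-31), from 4.14 to 0.768 mean cpm.
The inhibitory Smads, which the pathway induces and which act against it, both rose in Wnt1Cre-mTmG tail pNSCs. *Smad6* had 5.90, 4.55 and 5.54 cpm there, 0.268, 0.194 and 0 in brain NSCs and 0.254, 0.0985 and 0 in DRG pNSCs, and was the largest rise of a called member in that comparison (5.08, SE 0.428, edgeR adjusted p 1.20e-08). Without replicate 1 or 3 of the brain NSCs its value was 5.77 or 4.48. *Smad7* rose there too (1.67, SE 0.187, edgeR adjusted p 4.89e-07), from 2.09 to 6.66 mean cpm. In Nes-GFP tail pNSCs *Smad6* had 13 and 6 counts against 0 and 4 in brain NSCs, and its call (2.28, SE 0.672, edgeR adjusted p 0.00189) was lost without replicate 1 of the brain NSCs (1.36) or of the tail pNSCs (1.55) and was 6.22 without replicate 2 of the brain NSCs.
Mesenchymal markers stood apart in the Wnt1Cre-mTmG tail pNSCs. The 7 markers summed to 475 to 486 cpm there with none at 0, 26.5 to 29.5 in their brain NSCs and 20.1 to 21.5 in DRG pNSCs. In the Nes-GFP experiment they summed to 0.406 to 0.779 cpm in brain NSCs, with *Dcn*, *Lum* and *Postn* at 0, 2.13 to 3.09 in tail pNSCs and 1.57 to 2.01 in lung pNSCs. Tail cells had 7.36e+04 to 7.55e+04 cpm of them, and 75.8 and 71.2 cpm of *Id4*. The part of these markers in the 11 rises of the Wnt1Cre-mTmG tail pNSCs, that of *Id4* with *Bmp3*, *Bmp4*, *Bmp5*, *Tgfb1*, *Tgfb3*, *Tgfbr3*, *Smad6*, *Smad7*, *Nog* and *Fstl1*, was not tested.

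The secreted antagonists and regulators moved in both directions. *Fst*, which encodes the activin antagonist follistatin, rose in Nes-GFP tail pNSCs and Sox2-GFP lung pNSCs and fell in Wnt1Cre-mTmG tail pNSCs. It had 2.13 and 3.56 cpm in Nes-GFP brain NSCs, 6.11 and 6.74 in tail pNSCs (1.17, SE 0.175, edgeR adjusted p 1.25e-10) and 2.04 and 1.34 in lung pNSCs (-0.74, not called). It had 0.346, 0.649 and 0.574 cpm in Sox2-GFP brain NSCs and 1.53, 1.58 and 1.78 in lung pNSCs (1.6, SE 0.301, edgeR adjusted p 2.56e-07). It had 2.77, 2.90 and 2.45 cpm in Wnt1Cre-mTmG brain NSCs, 0.743, 0.874 and 1.06 in tail pNSCs (-1.6, SE 0.219, edgeR adjusted p 5.60e-06) and 2.88, 1.87 and 2.79 in DRG pNSCs (-0.09, not called). The call in Nes-GFP tail pNSCs was lost without replicate 1 of the brain NSCs (0.86).
*Fstl1*, a follistatin-like glycoprotein gene abundant in mesenchyme, rose in both tail pNSC groups. It had 27.9 and 29.6 cpm in Nes-GFP brain NSCs, 101 and 103 in tail pNSCs (1.83, SE 0.0487, edgeR adjusted p 3.24e-303) and 47.3 and 46.3 in lung pNSCs (0.69, not called). It had 85.0, 83.5 and 84.7 cpm in Wnt1Cre-mTmG brain NSCs, 171, 167 and 179 in tail pNSCs (1.03, SE 0.0462, edgeR adjusted p 2.26e-12) and 40.1, 42.5 and 43.6 in DRG pNSCs (-1.01, SE 0.0540, adjusted p 9.00e-11). It had 55.6, 54.7 and 53.3 cpm in Sox2-GFP brain NSCs and 53.6, 56.6 and 55.9 in lung pNSCs (0.02, not called). The fall in DRG pNSCs was at the limit for a call and was lost without their replicate 1 (-0.97).
*Chrdl1*, a BMP antagonist gene related to chordin, fell in both tail pNSC groups. It had 29.0 and 31.6 cpm in Nes-GFP brain NSCs and 12.2 and 12.7 in tail pNSCs (-1.28, SE 0.0924, edgeR adjusted p 1.42e-42). It had 39.5, 32.9 and 36.3 cpm in Wnt1Cre-mTmG brain NSCs and 8.74, 8.23 and 7.65 in tail pNSCs (-2.14, SE 0.0906, edgeR adjusted p 1.10e-12), the largest fall of a called member there. *Nog*, which encodes the BMP antagonist noggin, rose in Wnt1Cre-mTmG tail pNSCs (2.34, SE 0.228, edgeR adjusted p 8.02e-08), from 1.67 to 8.53 mean cpm. It fell in Sox2-GFP lung pNSCs (-1.70, SE 0.167, edgeR adjusted p 1.32e-23), from 5.65 to 1.74. *Chrd* and *Grem1* were not called in any of the 5 comparisons, and *Grem1* had at most 2 counts in any brain NSC or pNSC sample.

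Tail and lung pNSCs were each sampled in 2 experiments, and the difference between the 2 effects was tested as an interaction in a fit of all 28 samples. Each effect is taken against its own brain NSCs, and the reporter line and the brain NSC group change together between experiments, as does the age of the lung donors. For tail, isolation may change as well. The study sorted GFP-positive Nes-GFP tail cells before culture and plated Wnt1Cre-mTmG tail cells unsorted. It also derived pNSCs from sorted GFP-negative cells of the latter mice, and the labels do not say which were sequenced. These differences cannot be told apart.
For tail, the effect differed in 10 of 45 members, beside 16% of all genes tested. For *Id4* the difference, Wnt1Cre-mTmG minus Nes-GFP, was 3.11 (SE 0.160, edgeR adjusted p 6.43e-19) and for *Fst* -2.77 (SE 0.306, 8.35e-10), and these were the 2 members called in opposite directions in the 2 experiments. The other 8 were *Bmp3* (6.00), *Bmp6* (2.92), *Nog* (2.73), *Smad7* (1.27), *Inhbb* (1.11), *Bambi* (-1.11), *Tgfb3* (-1.75) and *Tgfbr2* (-1.76). *Bmp6* had at most 6 counts per sample in these groups, and its call was lost under 6 alternatives. Without replicate 1 of the Nes-GFP tail pNSCs the differences were 5.10 for *Bmp3*, 3.52 for *Bmp6* and 3.35 for *Nog*, and without their replicate 2 that of *Bmp3* was 10.78. The mesenchymal markers given above for the Wnt1Cre-mTmG tail pNSCs stand apart in the same libraries, and their part in these differences was not tested.
For lung, the effect differed in 12 of 45 members, beside 14.1% of all genes tested. The difference, Sox2-GFP minus Nes-GFP, was positive for *Fst* (2.33), *Bmp7* (1.56) and *Smad3* (1.24). It was negative for *Tgfb3* (-3.20), *Smad9* (-2.94), *Bmp2* (-2.89), *Gdf6* (-2.68), *Nog* (-1.75), *Id2* (-1.59), *Tgfb2* (-1.36), *Ltbp1* (-1.21) and *Bmp4*, which had at most 4 counts per sample and lost its call without replicate 2 of the Nes-GFP lung pNSCs. *Ltbp1* rose in both lung groups, by less in the Sox2-GFP cells. Such a difference can come from the brain NSC groups, the lung pNSCs or both. *Tgfb3* had 3.36 and 3.15 mean cpm in Nes-GFP and Sox2-GFP lung pNSCs, but 0.674 and 5.85 in their brain NSCs. *Bmp2* had 0.532 and 0.5385 in these lung pNSCs, and 0.198 and 1.56 in the brain NSCs. *Tgfb2*, by contrast, had 83.65 and 40.6 in the lung pNSCs, and 24.96 and 30.9 in the brain NSCs. Of the other pathway genes, 14 of 46 differed for tail and 10 of 46 for lung.

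**Figure D5:**
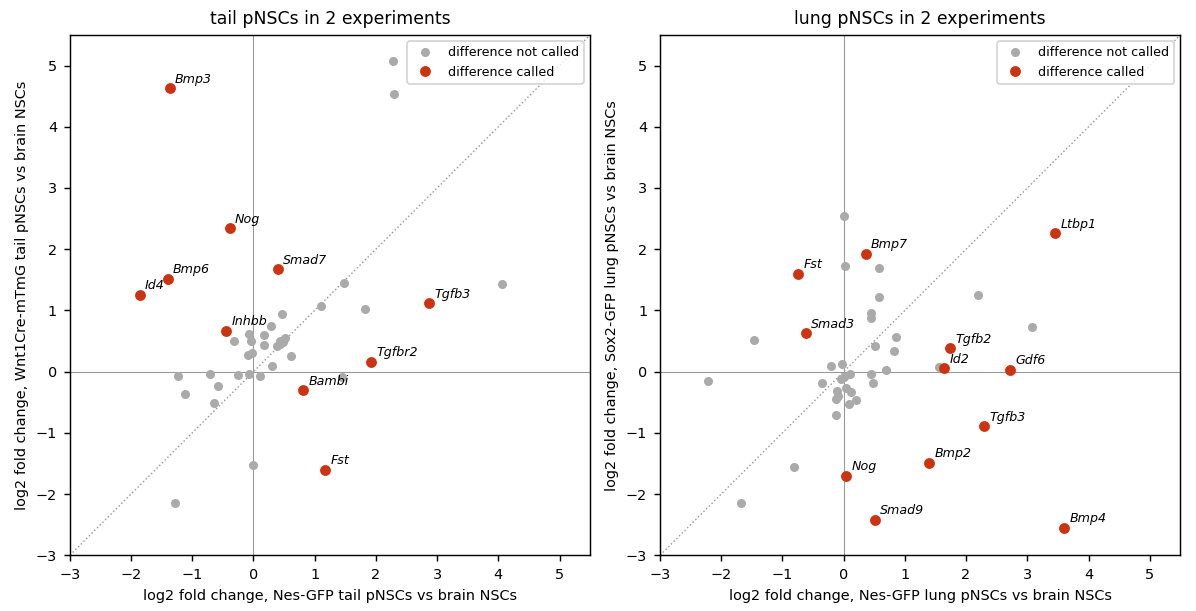
Log2 fold change against brain NSCs in the Nes-GFP experiment (x axis) and in the other experiment (y axis) for tail pNSCs (left, 43 genes) and lung pNSCs (right, 45 genes); each point is a gene, red where the difference between the 2 effects was called. Id4 lies at -1.86 and 1.26 for tail, and Ltbp1 at 3.45 and 2.26 for lung.

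NCSCs and DRG pNSCs are both from DRG, but from adult wild-type and from postnatal Wnt1Cre-mTmG mice, so that age, genotype and cell type cannot be told apart between them. Against brain NSCs 20 of 43 members were higher and 7 lower in NCSCs, beside 22.1% of all tested genes higher and 14.8% lower, and without the NCSC replicate that lay apart 21 were higher and 6 lower. The members' median was 0.88, against 0.01 over all genes tested.
*Tgfb1* had 109, 106 and 102 cpm in NCSCs (6.43, SE 0.119, edgeR adjusted p 2.23e-18), *Tgfbr2* 319, 326 and 289.9 (4.42, SE 0.0725, adjusted p 4.54e-19), *Tgfbr3* 94.7, 95.0 and 82.0 (6.32, SE 0.162, adjusted p 2.18e-16) and *Fstl1* 483, 474 and 519 (2.55, SE 0.0463, adjusted p 1.79e-18). Without replicate 1 of the brain NSCs the value of *Tgfbr3* was 7.06. In these 4 genes the NCSC samples lay above every brain NSC and pNSC sample. *Grem1* had 13.8, 15.6 and 14.1 cpm in NCSCs, 867 counts in all against 2 in brain NSCs, a ratio of 242 with a 95.0% exact interval of 66.6 to 1997 for counting error, and was the largest fitted rise of a called member.
On the BMP side members moved in both directions. *Acvr1*, a type I receptor gene, rose with 108, 107 and 89.5 cpm against 23.4, 24.2 and 23.0 in brain NSCs (2.13, SE 0.0750, edgeR adjusted p 2.10e-14). The ligand genes *Bmp2* (2.37), *Bmp3* (2.04) and *Bmp4* (2.58) rose, at 3.70, 2.58 and 1.81 mean cpm in NCSCs, and *Bmp5* and *Bmp6* were called higher with 63 and 70 counts against 2 each in brain NSCs. *Bmp7*, the highest BMP-type ligand gene per kb in both groups, was called lower, from 66.6 to 7.88 mean cpm. Summed per kb, the BMP-type ligands had 17.0 cpm in these brain NSCs and 4.85 in NCSCs. *Bmpr1b* had 0.834, 0.662 and 0.700 cpm in NCSCs, the largest fall (-7.11, SE 0.105, edgeR adjusted p 1.14e-19). *Id3*, with 47.6, 46.4 and 48.1 cpm, fell too (-1.52, SE 0.0412, edgeR adjusted p 4.67e-16), as did *Id2*, with 18.1, 19.4 and 14.9 cpm (-1.06, SE 0.0797, adjusted p 1.09e-09), a call lost without NCSC replicate 3 (-0.97). *Id4*, with 13.6, 14.9 and 16.0 cpm, was at 0.65 and *Id1*, with 12.1, 10.6 and 14.6 cpm, at -0.81, both inside the limit for a call.
In DRG pNSCs against NCSCs 8 of 43 members were higher and 19 lower, beside 15.1% and 23.3%, and the counts were the same without NCSC replicate 3. Both comparisons share the NCSC libraries. *Grem1* had no counts in DRG pNSCs, at least 51.7-fold lower than in NCSCs on a floor of 3 counts per library. The largest rise was that of *Bmpr1b* (5.87, SE 0.118, edgeR adjusted p 7.31e-18), and *Chrdl1* (4.35), *Bmp7* (3.36), *Id3* (1.74) and *Id2* (1.45) rose too. *Tgfb1* (-7.27), *Tgfbr3* (-4.75), *Tgfbr2* (-4.52), *Fstl1* (-3.56), *Ltbp1* (-2.55) and *Id4* (-2.21) fell.
The 7 mesenchymal markers summed to 7034 to 7139 cpm in NCSCs, led by *Postn*, with none at 0. The 5 leukocyte markers summed there to 588 to 621 cpm, led by *Lyz2*, against 1.88 to 2.96 in brain NSCs and 2.86 to 3.14 in DRG pNSCs, and the 4 neuron markers to 364 to 366 against 19.0 to 19.4 and 26.2 to 27.6. The part of these markers and of the neural crest and Schwann cell markers in the NCSC values was not tested. Of the other pathway genes 29 of 40 (23 higher, 6 lower) were called in NCSCs against brain NSCs and 28 of 40 (5 higher, 23 lower) in DRG pNSCs against NCSCs.

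Against the cells of the tissues from which pNSCs came, most members were lower. In Nes-GFP tail pNSCs 3 of 45 were higher than in tail cells and 31 lower, beside 14.1% and 32.6% of all tested genes, with a median of -2.90 against -0.16. In Nes-GFP lung pNSCs 8 of 45 were higher than in lung cells and 24 lower, beside 20.2% and 34.9%, with a median of -1.09 against -0.15.
*Gdf10*, a distant member of the BMP family, had 127 and 134 cpm in tail cells and 1 count in tail pNSCs against 4359, a ratio of 4849 with a 95.0% exact interval of 869.8 to 1.92e+05 for counting error, the largest fitted fall in that comparison. *Bmp2* had 66.3 and 64.7 cpm in tail cells and 0 and 3 counts in tail pNSCs. In lung cells *Bmp6* had 282 and 282 cpm and in lung pNSCs 2 and 1 counts, and *Bmp4* had 72.6 and 70.3 cpm and 1 and 2 counts. These ligand genes were near 0 in the cultured cells and not in the tissues.
Markers of other cell types stood apart in the same tissue libraries. In tail cells the mesenchymal markers summed to 7.36e+04 to 7.55e+04 cpm and the 6 epithelial markers to 3921 to 4017, against 2.13 to 3.09 and 0.171 to 0.203 in tail pNSCs, where *Krt8*, *Krt5*, *Krt14* and *Scgb1a1* were at 0. In lung cells the mesenchymal markers summed to 4265 to 4361 cpm, the leukocyte markers to 5684 to 5703 and the epithelial markers to 2.51e+04 to 2.56e+04, against 1.57 to 2.01, 2.47 to 3.24 and 0 in lung pNSCs. Their part in the differences from tissue cells, those of the ligands, *Id1* and *Id4* included, was not tested.
*Acvrl1*, with 1093 and 1070 cpm in lung cells against 0.142 and 0.223 in lung pNSCs, was the largest fall for lung (-12.54, SE 0.0883). *Smad6*, with 309 and 298 cpm against 0.285 and 0.335, fell as well (-9.95, SE 0.111). The 5 endothelial markers summed to 4024 to 4101 cpm in lung cells and 849.8 to 871 in tail cells against 3.27 to 4.24 in lung pNSCs, where *Cdh5* was at 0, and 7.55 to 8.11 in tail pNSCs, and their part in both values was not tested.
*Gdf11*, whose product restrains neurogenesis in several tissues, rose against both tissues. It had 58.6 and 59.5 cpm in tail pNSCs against 12.2 and 12.4 in tail cells (2.18, SE 0.0842, edgeR adjusted p 4.71e-146), the largest rise there, and 70.6 and 64.5 in lung pNSCs against 3.97 and 3.55 in lung cells (4.13, SE 0.104). *Bmpr1b* and *Smad5* also rose against both, by 2.08 and 1.42 for tail and 2.97 and 1.43 for lung.
*Bmp7* rose against lung cells, with 156 and 152 cpm against 5.55 and 4.49, the largest rise there (4.89, SE 0.0744). It fell against tail cells, which had 140.1 and 154 cpm (-1.50, SE 0.0469, edgeR adjusted p 2.01e-221). *Bmpr1a* (1.16), *Inhbb* (1.21), *Nog* (1.21) and *Chrdl1* (1.25) made up the rest of the 8 higher members for lung.
Of the Id genes, *Id1* fell against both tissues, by 3.80 for tail and 2.69 for lung on the log2 scale, and *Id4* fell by 4.24 and 2.18. *Id1* had 179 and 172 cpm in tail cells and 115 and 113 in lung cells, and *Id4* had 75.8 and 71.2 in tail cells and 19.3 and 22.3 in lung cells. *Id2*, with 103 and 98.2 cpm in tail cells and 106 and 101 in lung cells, fell for tail by 2.10 and was at -0.88 for lung. *Id3*, with 208 and 209.7 cpm in tail cells and 219.9 and 214 in lung cells, was at -0.25 and -0.67 and was not called. *Smad1*, *Smad2*, *Smad3* and *Smad4* were not called against either tissue. Among the other pathway genes 39 of 46 (7 higher, 32 lower) were called for tail and 37 of 46 (8 higher, 29 lower) for lung.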

How the data were processed

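RNA was polyA-selected, sequenced single-end and, per the labels and the study's methods, aligned to GRCm38 with HISAT2 and counted per gene with htseq-count. The authors deposited 1 table of raw counts for 28244 genes in 28 samples. Depth was 9808246 to 22637031 counts per sample, so precision is lowest for genes of a few counts.

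Genes were tested with edgeR 4.0.16 (quasi-likelihood F test, TMM, filterByExpr with a minimum count of 10 and a minimum total of 15) in 1 fit for each of the 3 experiments, on 16948, 14448 and 16234 genes, and in a fit of all 28 samples (17393 genes) for the 2 interactions. The Sox2-GFP fit included the 2 lung cell samples. P-values were adjusted (Benjamini-Hochberg) over all tested genes, and a call needed an adjusted p below 0.05 together with a log2 change of 1 or more in size. Levels are TMM-scaled cpm over all samples, divided by GENCODE M21 exon length for cpm per kb. Intervals and floors (3 counts) cover counting error only. Values per sample were to be given for members called in at least 3 of the 5 comparisons with brain NSCs, the 4 Id genes and the largest rise and fall among called members of each comparison; the other members with such values were chosen after their values were seen. Alternatives were DESeq2 1.42.0, RLE and upper-quartile scaling, no filter, other sets of samples, a replicate block, no limit on the fold change and leaving out each replicate. Replicate numbers did not pair the samples (correlations of their deviations -0.0148 to 0.0339). Of the members, 20 overlap another gene. The members and gene lists were chosen with earlier results of these data known.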

Additional observations from a re-analysis of the deposited data

Results flagged for a closer look

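For tail pNSCs the effect against brain NSCs differed between the Wnt1Cre-mTmG and Nes-GFP experiments in 10 of 45 members by the interaction test (edgeR, all 28 samples), beside 16% of all genes tested. *Id4* was among these members, with a difference of 3.11 on the log2 scale (Wnt1Cre-mTmG minus Nes-GFP), and so was *Fst*, with a difference of -2.77. These 2 members were called in opposite directions in the 2 experiments. For lung pNSCs the effect differed between the Sox2-GFP and Nes-GFP experiments in 12 of 45 members by the same test, beside 14.1% of all genes tested. None of the 12 members was called in opposite directions. No group held more than 3 samples, so single outlying samples were not tested for.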

How the results depend on the processing

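Of 152 recomputed counts of called members, 144 stayed within 1.5 times the reported count. The other 8 came from dropping the limit on the fold change, which gave 31 called members in Nes-GFP tail pNSCs, 23 in Nes-GFP lung pNSCs, 32 in Wnt1Cre-mTmG tail pNSCs, 23 in DRG pNSCs, 35 in Sox2-GFP lung pNSCs and 42 in NCSCs, each against brain NSCs, and 26 and 27 for the tail and lung interactions. The share of all tested genes called without this limit was not computed, so these counts say nothing particular about the members. Leaving out 1 replicate gave 9 to 12, 7 to 8, 12 to 13, 5 to 7 and 11 to 14 called members in the 5 pNSC comparisons in that order, 27 to 28 in NCSCs against brain NSCs, 27 in DRG pNSCs against NCSCs, 34 and 30 to 32 against tail and lung cells, and 9 to 11 and 11 to 13 for the interactions. Where this left 1 sample in a group, that sample was assumed to vary like the other groups.

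With the replicate block, 12 members were called in Nes-GFP tail pNSCs (9 higher, 3 lower), *Bmp4* being lost, and the other 10 counts did not change. The numbers share no source in the labels and did not pair the samples.

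Of 2577 recomputed values of single members, 45, belonging to 15 values, lost their call and none reversed. The cause was not tested. RLE and upper-quartile scaling moved the median of all genes by less than 0.1. Counts limit the ligands with fewer than 30 counts in every sample.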
